A study of Mus musculus with 6 samples.

Results

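MHC class I antigen presentation was examined through 10 genes of the 27179 in the count tables: the heavy chains H2-K1 and H2-D1, their light chain B2m, the peptide transporter subunits Tap1 and Tap2, the loading factor tapasin (Tapbp), the immunoproteasome subunits Psmb8, Psmb9 and Psmb10, and the transactivator Nlrc5. The genes were chosen by name, as the established parts of this pathway, with earlier results of these data known. All 10 were among the 14069 genes that passed the filter on low counts. Poly(A) RNA was sequenced from mouse embryonic fibroblast lines, with 2 libraries per line from separate RNA preparations. The CPN-/- line lacks functional CRY1, CRY2, PER1, PER2, NR1D1 and NR1D2, so the clock repressors are missing, and the CPN-/- CRY1 and CPN-/- CRY2 lines carry in addition mouse Cry1 or Cry2 from a retroviral vector with a viral promoter. The comparisons ask which transcripts differ once a single cryptochrome (CRY), a transcriptional repressor of the circadian clock, is put back. All 3 lines share the losses of the parent line and were grown unstimulated in serum-containing medium. Each CRY line was grown from a single drug-resistant colony, so the effect of the CRY protein and differences between clones cannot be told apart, and p-values measure the spread between preparations of a line.

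Class I molecules show fragments of a cell's own proteins to CD8 T cells and to natural killer cells. Proteasomes cut the proteins, the TAP transporter carries the peptides into the endoplasmic reticulum, tapasin holds empty class I molecules at the transporter, and the loaded complex of heavy chain, peptide and beta-2 microglobulin moves to the cell surface. Interferons raise the whole set, NLRC5 activates the heavy chain, B2m, transporter and immunoproteasome promoters, and fibroblasts without interferon keep a low basal level of it.

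The libraries held 25957409 to 36106949 counts each, and values below are in CPM, counts relative to the library total after scaling by TMM factors, unless stated. Cry1 RNA was highest in the CRY1 line, at 165 and 190 CPM, and Cry2 RNA was highest in the CRY2 line, at 349 and 351 CPM. Transcripts of both genes were also counted in CPN-/- (Cry1 at 125 and 115 CPM, Cry2 at 136 and 129 CPM), where gene counts do not separate disrupted from intact transcripts. Of 10 fibroblast markers, Col1a1, Col1a2 and Vim were each at 2179 CPM or more in every library, while Thy1, Lum and Dcn were at 2.24 CPM or below. Summed over 11 markers of leukocytes, endothelium and epithelium the libraries held 2.42 to 3.09 CPM, with 10 of the 11 under 1 CPM in every library and Cd3e and Epcam at 0 throughout. The macrophage-enriched Cd68 made up most of the rest, at 1.62 to 2.08 CPM. The CPN-/- libraries differed from each other more than the libraries of the other lines did, with an SD of the log2 difference of 0.44 over genes against 0.23 and 0.24. That difference followed transcript length (Spearman rho -0.69 across 12478 genes, which are not independent replicates), with short transcripts higher in replicate 2.

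In the CRY2 line all 10 genes sat below CPN-/-, and 7 of them fell: H2-K1, H2-D1, Tap2, Tapbp, Psmb8, Psmb9 and Nlrc5. Across all genes tested, 6.65% were called in this comparison (4.08% lower, 2.57% higher; edgeR quasi-likelihood test, Benjamini-Hochberg adjusted p under 0.05). The median log2 fold change of the 10 genes was -1.04, with a range of -4.19 to -0.38, against -0.01 over all tested genes. In the CRY1 line the same genes were split. Nlrc5, B2m and Tap1 rose, H2-K1 fell, and 6 did not pass the test, where 24.3% of all genes were called (13.1% lower, 11.2% higher). The median was -0.09, with a range of -0.76 to 1.88, against -0.01 over all genes. Set directly against the CRY2 line, the CRY1 line was called higher for 9 of the 10 genes. The median over all 10 was 1.10 on the log2 scale. Over all tested genes it was -0.00, and 16.3% were called (8.58% lower, 7.72% higher). The 3 comparisons reuse libraries, since both CRY lines are set against the same CPN-/- samples, so they are not separate evidence. Bulk RNA cannot tell fewer cells of a type from less RNA per cell.

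Both CRY2 libraries lay below both CPN-/- libraries for 10 of 10 genes, an arrangement that 27.2% of all tested genes showed. Both CRY1 libraries lay above both CRY2 libraries for 10 of 10 genes, against 36.4% of all tested genes. Between CRY1 and CPN-/- the libraries of 3 genes overlapped, 4 genes were above (32.9% of all genes) and 3 were below (34% of all genes).

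**Figure D1:**
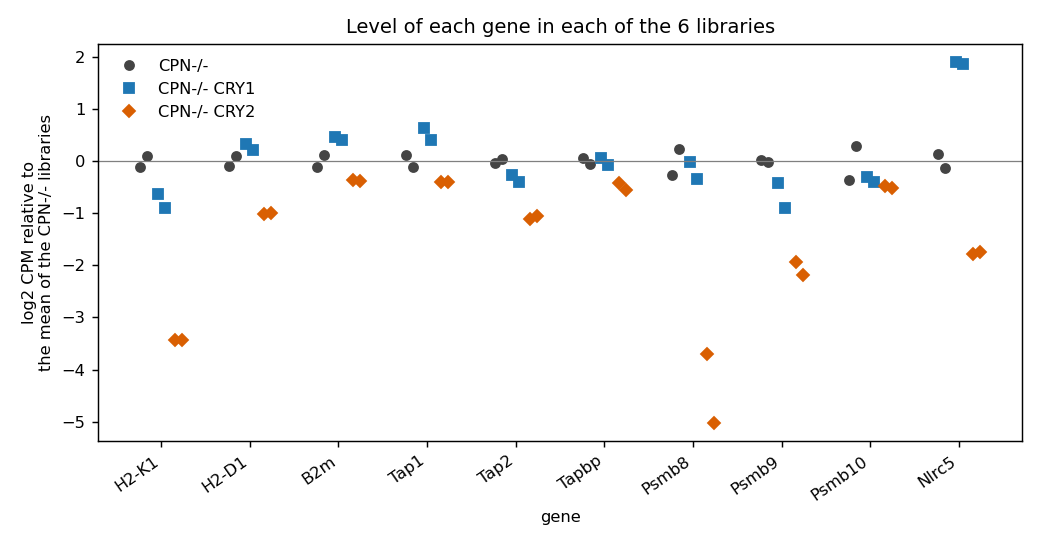
Level of each of the 10 genes in each library, as log2 CPM relative to the mean of the 2 CPN-/- libraries, with 1 point per library and 1 colour per line. The CRY2 points of H2-K1, Psmb8, Psmb9 and Nlrc5 lie far under 0, and the CRY1 points of Nlrc5 stand well above it.

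**Figure D2:**
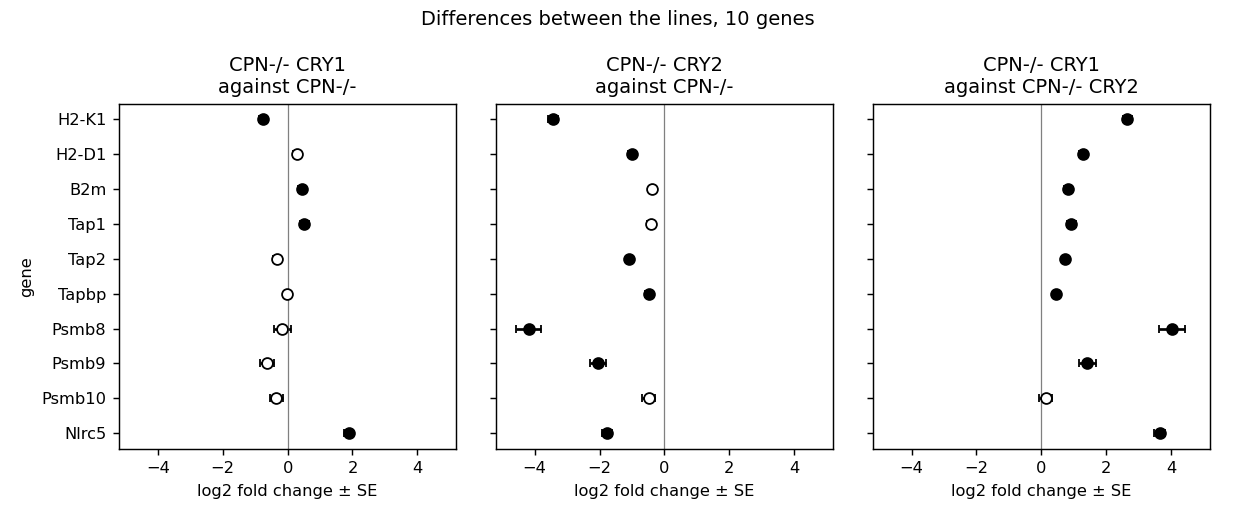
Fitted log2 fold change of the 10 genes in each comparison, with bars of 1 standard error and filled points for adjusted p under 0.05 (edgeR quasi-likelihood test). All 10 points are below 0 for CRY2 against CPN-/-, and all 10 are above 0 for CRY1 against CRY2.

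The genes of the pathway sit mostly together. Coordinates are those of the mm10 build, with gene models from RefSeq. Within the MHC on chromosome 17 lie Tapbp (33919478 to 33929290), H2-K1 (33996012 to 34000619, reverse strand), Psmb9 (34182030 to 34187330, reverse strand), Tap1 (34187556 to 34197225), Psmb8 (34198195 to 34201454), Tap2 (34204479 to 34216321) and H2-D1 (35263094 to 35267497). The other 3 lie elsewhere, with B2m on chromosome 2 (122147687 to 122153082) and Nlrc5 (94434335 to 94527272) and Psmb10 (105935728 to 105938392, reverse strand) on chromosome 8. The interval from Tapbp to H2-D1 held 60 other tested genes, and their median log2 fold change was -0.21 for CRY2 against CPN-/-, with 4 called lower. Over the 667 other tested genes of chromosome 17 that median was -0.13, with 37 called lower and 7 higher. Against CPN-/-, the CRY1 line had a median of -0.17 in the interval, with 7 called lower and 2 higher. Among all tested genes 4.08% were called lower and 2.57% higher in CRY2, and 13.1% lower and 11.2% higher in CRY1.

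Nlrc5, the class I transactivator (a GENCODE transcript of 7578 bases in 53 exons), moved in opposite directions in the CRY lines. It was counted at 6.25 and 5.18 CPM in the CPN-/- libraries, at 21.4 and 20.9 CPM in the CRY1 libraries and at 1.65 and 1.7 CPM in the CRY2 libraries. The 3 lines did not overlap, and the libraries of a line lay close together. Nlrc5 rose 3.69-fold in the CRY1 line (log2 fold change 1.88, SE 0.13, edgeR adjusted p = 3.8e-04) and fell 3.41-fold in the CRY2 line (-1.77, SE 0.16, edgeR adjusted p = 0.0018). Between the CRY lines the difference was 12.6-fold (3.65, SE 0.16, edgeR adjusted p = 1.2e-04), the most significant difference among the 10 genes. All alternatives kept these calls. The gene overlaps 9330175E14Rik on the opposite strand over 78 exonic bases.

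H2-K1 moved in the opposite direction to Nlrc5 in the CRY1 line. H2-K1, one of the classical class I heavy chains, was at 53.1 and 61.1 CPM in CPN-/-, at 36.6 and 30.6 CPM in CRY1 and at 5.29 and 5.3 CPM in CRY2. The levels descended from CPN-/- to CRY1 to CRY2 with no overlap between lines. H2-K1 fell 1.7-fold in the CRY1 line (-0.76, SE 0.13, edgeR adjusted p = 0.0079) and 10.8-fold in the CRY2 line (-3.43, SE 0.15, edgeR adjusted p = 1.9e-04). Without CRY1 replicate 2 the CRY1 value was -0.64 and no longer passed (edgeR adjusted p = 0.093). H2-K1 was 6.34-fold higher in CRY1 than in CRY2 (2.66, SE 0.14, edgeR adjusted p = 2.7e-04).

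H2-D1, the other classical heavy chain measured, was at 202 and 231 CPM in CPN-/-, at 272 and 252 CPM in CRY1 and at 107 and 109 CPM in CRY2. Here the CRY1 libraries were the highest, although not past the test against CPN-/-. In the CRY2 line H2-D1 fell by 1.00 on the log2 scale, or 2-fold (SE 0.11, edgeR adjusted p = 0.0033). This call was lost with either CRY2 library left out (edgeR adjusted p = 0.063 at -0.98 without replicate 1 and 0.061 without replicate 2). For CRY1 against CPN-/- the log2 fold change was 0.28 (SE 0.11, 95% interval 0.02 to 0.53 before adjustment, edgeR adjusted p = 0.1). It passed with the transcript length trend removed (0.45, edgeR adjusted p = 4.3e-04). Its value was 0.18 without CPN-/- replicate 1 and 0.38 without CPN-/- replicate 2. H2-D1 was 2.42-fold higher in CRY1 than in CRY2 (1.28, SE 0.11, edgeR adjusted p = 7.2e-04).

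The pair therefore shifted against each other. On a per-length scale (FPKM) H2-K1 stood at 34.1% and 34.4% of the H2-D1 level in the CPN-/- libraries, at 17.4% and 15.8% in the CRY1 libraries and at 6.39% and 6.31% in the CRY2 libraries. Heavy chain genes differ between mouse strains, and the haplotype of these lines is not given in the sources used here, so reads of a strain-specific allele could be assigned to a neighbouring gene or left out. H2-D1 shares 280 bases at 96.4% identity with H2-Q7.

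The promoters of the heavy chains are shown because H2-K1 and H2-D1 differed in the CRY1 line while their upstream sequences are near copies of each other. RefSeq windows (GRCm38.p6, from 250 bases before to 50 after the transcription start) existed for 8 of the 10 genes, those without being Tap2 and Nlrc5. Capitals mark a kB-type motif (GGGNNTTCC) and, after it, a shorter interferon regulatory factor motif (GAANNGAAA, read on the other strand), the 2 letter patterns found in these windows. RefSeq holds 2 windows for H2-K1 with different starts, and the one printed is chr17:34000298-34000597 on the reverse strand, and the H2-D1 window is chr17:35262844-35263143 on the forward strand.
H2-K1: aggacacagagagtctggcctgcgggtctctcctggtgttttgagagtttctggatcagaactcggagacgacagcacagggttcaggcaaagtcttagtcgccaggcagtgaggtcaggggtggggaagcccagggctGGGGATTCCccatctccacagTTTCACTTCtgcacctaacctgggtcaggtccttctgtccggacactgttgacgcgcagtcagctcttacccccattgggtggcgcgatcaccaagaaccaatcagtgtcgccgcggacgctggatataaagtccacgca
H2-D1: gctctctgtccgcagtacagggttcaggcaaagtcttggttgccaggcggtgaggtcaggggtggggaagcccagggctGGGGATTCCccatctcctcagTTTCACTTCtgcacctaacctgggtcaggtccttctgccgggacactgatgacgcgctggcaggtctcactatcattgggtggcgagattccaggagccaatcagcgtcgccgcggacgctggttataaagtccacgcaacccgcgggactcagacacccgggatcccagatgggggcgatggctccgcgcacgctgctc
The windows were identical at 206 of 228 aligned positions (90.4%), with a longest shared run of 47 bases. In H2-K1 the kB-type match spans positions -111 to -103 from the start and the interferon factor match -90 to -82, or -125 to -117 and -104 to -96 when counted from the start of the other window (chr17:34000284-34000583). In H2-D1 they lie at -171 to -163 and at -150 to -142, with the same matched letters. The closing bases of the printed H2-K1 window, after its start, recur before the start in H2-D1. Positions counted from these RefSeq starts therefore do not compare the distance of the matches between the genes. Among 32851 windows of the same length, 5.82% held the kB-type motif and 7.52% the shorter interferon factor motif, on either strand. The shorter motif was chosen after the sequences were seen, so its share does not measure an enrichment in these windows.

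B2m, the light chain that every class I heavy chain needs to reach the surface, was the most abundant of the 10 transcripts per length (FPKM) in every line. It was at 385 and 449 CPM in CPN-/-, at 579 and 554 CPM in CRY1 and at 323 and 318 CPM in CRY2. The 3 lines did not overlap, in the order CRY1, CPN-/-, CRY2. B2m rose 1.36-fold in CRY1 (0.44, SE 0.11, edgeR adjusted p = 0.029), a call lost without CRY1 replicate 1 (0.41, edgeR adjusted p = 0.2) or replicate 2 (0.48, 0.17), with either CRY2 library left out (0.45, 0.089), and with the 4 libraries of the comparison alone (0.44, 0.092). With the length trend removed the value was 0.79. In CRY2 the log2 fold change was -0.38 (SE 0.11, 95% interval -0.64 to -0.12 before adjustment, edgeR adjusted p = 0.1). That comparison passed under DESeq2 (adjusted p = 0.045). Its value was -0.49 without CPN-/- replicate 1, -0.26 without CPN-/- replicate 2 and -0.13 with the length trend removed. B2m was 1.77-fold higher in CRY1 than in CRY2 (0.82, SE 0.11, edgeR adjusted p = 0.0043), a call lost without any 1 of the 4 CRY libraries (edgeR adjusted p = 0.055 to 0.077).

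The B2m window is printed because it alone of the 8 held the full interferon-stimulated response element (GAAA, any 2 bases, GAAA, in capitals as GAAACTGAAA at positions -139 to -130), which 3.44% of all windows held. It is chr2:122147437-122147736 on the forward strand.
B2m: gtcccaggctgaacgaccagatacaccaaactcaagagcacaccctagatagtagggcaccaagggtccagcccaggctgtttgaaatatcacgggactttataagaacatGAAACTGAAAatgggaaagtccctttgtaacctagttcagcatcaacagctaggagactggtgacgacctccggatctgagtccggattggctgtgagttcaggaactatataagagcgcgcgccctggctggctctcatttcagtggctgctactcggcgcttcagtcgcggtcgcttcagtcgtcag
The same search found TTCNNNGAA, the letters of a STAT-type site, in Psmb8 at -97 to -89 (8.3% of all windows). The E-box CACGTG, the letters bound by the clock activator that CRY proteins repress, occurred in Psmb10 at -116 to -111 (7.15% of all windows). No searched motif occurred in the Tapbp, Tap1 or Psmb9 windows, which says only that these letters are not in them.

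**Figure D3:**
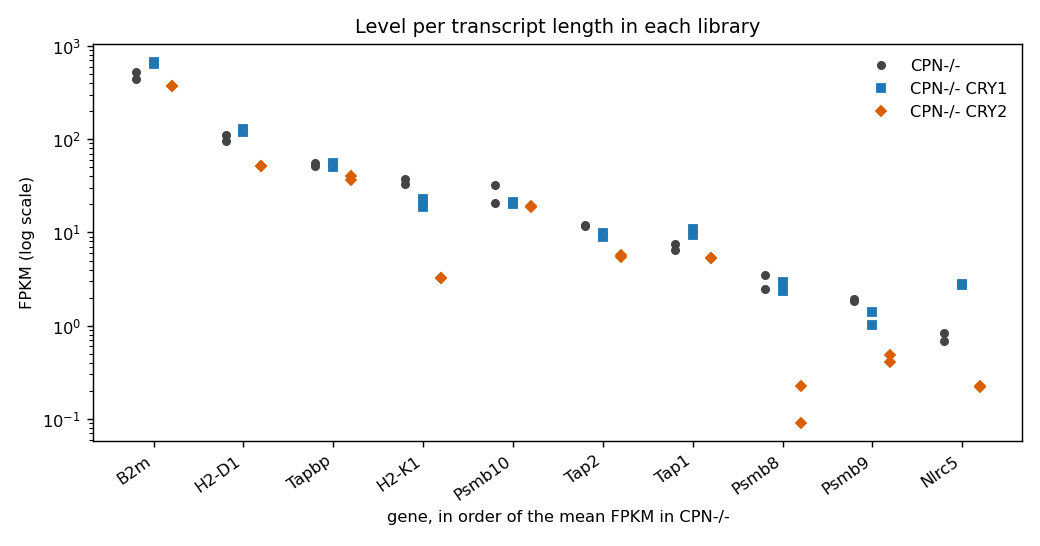
Level per length (FPKM, log axis) of the 10 genes in each library, with 1 point per library and 1 colour per line. B2m lies highest in every line, while Psmb8, Psmb9 and Nlrc5 are the lowest.

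The peptide transporter subunits, which work as a 1 to 1 pair, differed in how they moved. Tap1 was at 22.3 and 19.2 CPM in CPN-/-, at 32.2 and 27.4 CPM in CRY1 and at 15.6 and 15.6 CPM in CRY2. It followed the order of B2m and Nlrc5, with CRY1 highest and no overlap. Tap1 rose 1.43-fold in CRY1 (0.52, SE 0.13, edgeR adjusted p = 0.029) and was -0.41 in CRY2 (SE 0.13, edgeR adjusted p = 0.13). The CRY1 call was lost without CRY1 replicate 1 (0.40, edgeR adjusted p = 0.22) or replicate 2 (0.63, 0.096), with either CRY2 library left out (0.53, 0.076), and with the 4 libraries of the comparison alone (0.52, 0.078). The CRY2 value was -0.29 without CPN-/- replicate 1 and -0.51 without CPN-/- replicate 2. Between the CRY lines Tap1 was 1.9-fold higher in CRY1 (0.93, SE 0.13, edgeR adjusted p = 0.0054). That call was lost without CRY1 replicate 1 (0.81, edgeR adjusted p = 0.069) and with either CRY2 library left out (0.93, 0.067 and 0.071).

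Tap2 was at 39.8 and 41.5 CPM in CPN-/-, at 33.7 and 30.5 CPM in CRY1 and at 18.8 and 19.7 CPM in CRY2. CPN-/- was thus the highest line for Tap2, and CRY2 again the lowest, with no overlap. Tap2 fell 2.11-fold in CRY2 (-1.08, SE 0.10, edgeR adjusted p = 0.0021), a call every alternative kept. In CRY1 it was -0.34 (SE 0.10, edgeR adjusted p = 0.052). It passed with library size scaling (-0.36, edgeR adjusted p = 0.046) and with the length trend removed (-0.33, 0.01). Its value was -0.37 without CPN-/- replicate 1 and -0.30 without CPN-/- replicate 2. Between the CRY lines Tap2 was 1.67-fold higher in CRY1 (0.74, SE 0.10, edgeR adjusted p = 0.0053). This call was lost without CRY1 replicate 1 (0.66, edgeR adjusted p = 0.082) and with either CRY2 library left out (0.71 and 0.77, 0.083 and 0.072). Per length, the ratio of Tap1 to Tap2 was 0.655 and 0.539 in CPN-/-, 1.11 and 1.05 in CRY1 and 0.968 and 0.926 in CRY2. Tap1 was thus the lower subunit in CPN-/- and level with or just above Tap2 in CRY1. Tap2 overlaps Gm15821 (533 exonic bases) and Gm20496 (165 exonic bases) on the opposite strand.

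Tapasin, the Tapbp product, bridges the transporter and empty class I molecules. Tapbp was at 162 and 150 CPM in CPN-/-, at 161 and 147 CPM in CRY1 and at 116 and 107 CPM in CRY2. CPN-/- and CRY1 overlapped and CRY2 was below both. Tapbp fell 1.4-fold in CRY2 (-0.49, SE 0.10, edgeR adjusted p = 0.04). The call was lost with the 4 libraries of the comparison alone and with either CRY1 library left out (-0.49 and 0.13 in each), and without CRY2 replicate 1 (-0.54, edgeR adjusted p = 0.24) or replicate 2 (-0.42, 0.36). For CRY1 against CPN-/- the value was -0.02 (SE 0.10, 95% interval -0.26 to 0.23, edgeR adjusted p = 0.91). Between the CRY lines Tapbp was 1.39-fold higher in CRY1 (0.47, SE 0.10, edgeR adjusted p = 0.024), a call lost without any 1 of the 4 CRY libraries (0.40 to 0.54, edgeR adjusted p up to 0.25). Tapbp shares 149 exonic bases with Zbtb22 on its own strand and 904 with Gm19412 on the opposite strand.

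The inducible proteasome subunits replace constitutive ones in the catalytic core, Psmb8 in place of Psmb5, Psmb9 in place of Psmb6 and Psmb10 in place of Psmb7, and thereby change which peptides are cut. Psmb8 was at 3.99 and 5.64 CPM in CPN-/-, at 4.76 and 3.79 CPM in CRY1 and at 0.367 and 0.148 CPM in CRY2. CPN-/- and CRY1 overlapped, and the CRY2 libraries held only 10 and 4 counts of the gene. Psmb8 fell 18.3-fold in CRY2 (-4.19, SE 0.39, edgeR adjusted p = 0.0019), the largest fold among the 10 genes and the least precise in SE. It was 16.4-fold higher in CRY1 than in CRY2 (4.03, SE 0.39, edgeR adjusted p = 0.0013). Without CRY2 replicate 1 these values were -4.97 and 4.82, and without CRY2 replicate 2 they were -3.68 and 3.53, each still called by edgeR. For CRY1 against CPN-/- it was -0.16 (SE 0.25, 95% interval -0.75 to 0.43, edgeR adjusted p = 0.65). Psmb8 shares 498 exonic bases with Gm20496 on the opposite strand.

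Psmb9 was at 2.58 and 2.49 CPM in CPN-/-, at 1.88 and 1.36 CPM in CRY1 and at 0.661 and 0.556 CPM in CRY2. The levels descended from CPN-/- to CRY1 to CRY2 without overlap, as for H2-K1. Psmb9 fell 4.15-fold in CRY2 (-2.05, SE 0.26, edgeR adjusted p = 0.0056), a call lost without CRY2 replicate 1 or replicate 2 (-2.18 and -1.92, edgeR adjusted p = 0.06 and 0.075). In CRY1 it was -0.64 (SE 0.21, edgeR adjusted p = 0.071), and -0.65 without CPN-/- replicate 2. Between the CRY lines Psmb9 was 2.67-fold higher in CRY1 (1.42, SE 0.27, edgeR adjusted p = 0.015). That call was lost without CRY1 replicate 1 (1.16, edgeR adjusted p = 0.12) and with either CRY2 library left out (1.55 and 1.29, 0.096 and 0.14).

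Psmb10 was at 26.8 and 42.4 CPM in CPN-/-, at 28.1 and 26.2 CPM in CRY1 and at 24.9 and 24.4 CPM in CRY2. It was the only 1 of the 10 that passed in no comparison, and its 2 CPN-/- libraries lay farther apart than the lines did. The log2 fold change was -0.35 in CRY1 (SE 0.20, 95% interval -0.83 to 0.13, edgeR adjusted p = 0.24), -0.49 in CRY2 (SE 0.20, edgeR adjusted p = 0.2) and 0.14 between the CRY lines (SE 0.20, 95% interval -0.34 to 0.62, edgeR adjusted p = 0.71). Without CPN-/- replicate 1, Psmb10 was -0.64 in CRY1 and -0.78 in CRY2. Without CPN-/- replicate 2 the values were 0.02 and -0.12. With 1 CPN-/- library left the spread comes from the CRY lines, whose libraries differed less. The share of the CPN-/- length trend in this gene was not tested beyond the fit with that trend removed, where CRY2 against CPN-/- stood at -0.23.

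Against their constitutive counterparts, per length, the inducible subunits were all minor forms. Psmb8 stood at 4.37% and 3.8% of Psmb5 in CPN-/-, at 5.03% and 4.6% in CRY1 and at 0.416% and 0.147% in CRY2. Psmb9 stood at 0.902% and 0.552% of Psmb6 in CPN-/-, at 0.696% and 0.543% in CRY1 and at 0.246% and 0.18% in CRY2. Psmb10 stood at 9.64% and 10.2% of Psmb7 in CPN-/-, at 10.6% and 10.3% in CRY1 and at 9.2% and 8.21% in CRY2. The CRY2 libraries were the lowest in each ratio, by the widest gap for Psmb8 and the narrowest for Psmb10. The counterparts themselves did not pass the test in any comparison, with Psmb5 at -0.43 and -0.34, Psmb6 at -0.50 and -0.35 and Psmb7 at -0.42 and -0.29 in CRY1 and CRY2 against CPN-/-.

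**Figure D4:**
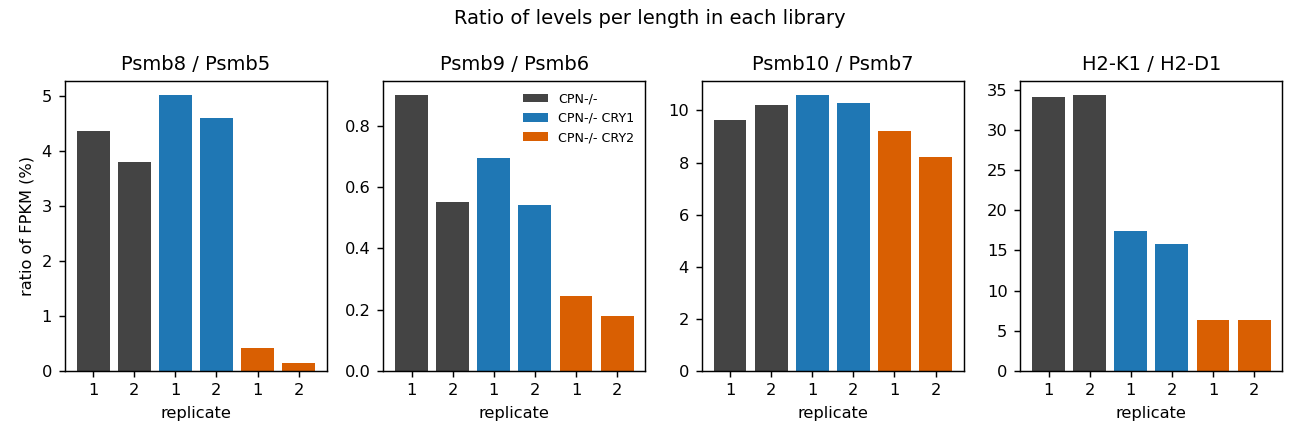
Ratio of FPKM (in percent, linear axes that start at 0 and differ in range between panels) within each library, with 1 bar per library and 1 colour per line. Psmb8 over Psmb5 and H2-K1 over H2-D1 are lowest in the CRY2 libraries, while Psmb10 over Psmb7 stays between 8.21% and 10.6%.

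Tap1 and Psmb9 start back to back, 226 bases apart, and are transcribed away from each other, so their promoter windows share 275 bases. The interval is shown because the genes did not move alike from that shared stretch. It is chr17:34187306-34187605, written on the forward strand, and capitals mark the first 10 bases of Psmb9 (the earlier run, on the complementary strand) and of Tap1 (the later run).
Tap1 and Psmb9: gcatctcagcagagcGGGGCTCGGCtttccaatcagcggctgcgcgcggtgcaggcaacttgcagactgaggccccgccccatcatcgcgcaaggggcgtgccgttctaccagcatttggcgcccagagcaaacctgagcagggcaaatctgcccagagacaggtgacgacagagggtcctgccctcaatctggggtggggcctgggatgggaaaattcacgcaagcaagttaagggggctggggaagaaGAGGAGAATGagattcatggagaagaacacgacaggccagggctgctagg
Per length, the Tap1 level was 3.97 and 3.52 times that of Psmb9 in CPN-/-, 7.83 and 9.21 times in CRY1 and 10.8 and 12.9 times in CRY2. The ratio was higher in both CRY lines than in CPN-/-. In GENCODE the genes share 212 exonic bases on opposite strands, and without a stated strand setting reads there cannot be assigned to either.

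Ordered per length in CPN-/-, mean FPKM ran from B2m (485) through H2-D1 (103), Tapbp (53.9), H2-K1 (35.3), Psmb10 (26.4), Tap2 (11.8), Tap1 (7.03), Psmb8 (2.96) and Psmb9 (1.88) to Nlrc5 (0.754). Neighbours in that order did not overlap between libraries. In CRY1 the first 3 places were the same, at 659, 125 and 53.3 FPKM. H2-K1 and Psmb10 (20.7 each), Tap1 and Tap2 (10.1 and 9.33) and Nlrc5 and Psmb8 (2.79 and 2.63) could not be ordered beyond their spread there, and Psmb9 was last at 1.2 FPKM. In CRY2 the first 3 places held again, at 373, 51.5 and 38.4 FPKM, followed by Psmb10 (18.8), Tap2 (5.6), Tap1 (5.3), H2-K1 (3.27) and Psmb9 (0.45). Nlrc5 and Psmb8 (0.222 and 0.158) overlapped at the bottom. H2-K1 thus went from place 4 to place 7 between CPN-/- and CRY2, below both transporter subunits.

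Over the 6 libraries, the log2 CPM of each gene was set against the mean standardised profile of the other 9. Pearson's r was 0.99 for Psmb8, 0.98 for H2-D1, 0.95 for H2-K1 and Tapbp, 0.91 for Tap2, 0.90 for Psmb9, 0.83 for B2m and Nlrc5, 0.78 for Tap1 and 0.48 for Psmb10. These are descriptions over 6 points in 3 clusters, with no test. Among 11401 other genes averaging 100 counts or more, those most like the mean profile of the 10 were Cep78 (r = 0.998), Mapk11 (0.996), Efhd2, Chst1 and Pdgfb (0.995 each). Their drop in CRY2 was shallower for Cep78 (12.3 and 12.7 CPM in CPN-/-, 9.26 and 9 CPM in CRY2) than for Pdgfb, which encodes a platelet-derived growth factor chain (8.52 and 10.7 CPM against 1.87 and 1.89 CPM).

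Of 16 other class I and class I-like heavy chain genes, 10 were expressed enough to test. In CRY2 4 fell (median -0.70), and in CRY1 6 fell and 1 rose (median -1.04). Of all tested genes, 4.08% fell in CRY2, and 13.1% fell and 11.2% rose in CRY1. With CRY1 replicate 2 left out 2 fell in CRY1, with CRY1 replicate 1 left out 3 fell, and with either CRY2 library left out 2 fell in CRY2. H2-Q4, a nonclassical Qa-region heavy chain, was at 28 and 29.6 CPM in CPN-/-, at 14.5 and 11.3 CPM in CRY1 and at 2.98 and 2.52 CPM in CRY2. It fell in both (-1.15 and -3.39, edgeR adjusted p = 0.0033 and 3.0e-04), the same order of lines as H2-K1. H2-Q7, which encodes a Qa-2 heavy chain, was at 4.46 and 4.37 CPM in CPN-/- and at 0.498 and 0.324 CPM in CRY1 (-3.39, edgeR adjusted p = 3.5e-04). In CRY2 it had 2 counts over both libraries against 256 in CPN-/-, a ratio of 120 (95% counting interval 32.8 to 995). H2-M3, which presents formylated peptides, fell in CRY1 and CRY2 (-1.29 and -1.51, edgeR adjusted p = 0.0045 and 0.0054), the first call lost without CRY1 replicate 2 (0.058) and the second with either CRY2 library left out (0.059 and 0.074). H2-T23, the Qa-1 heavy chain, also fell in both (-0.92 and -0.92, edgeR adjusted p = 0.02 and 0.047), and both calls were lost with any CRY library left out.

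Other nonclassical genes departed from that order. Cd1d1, which presents lipids, fell in CRY1 (-1.76, edgeR adjusted p = 0.01), was -0.49 in CRY2 (0.33), and was lower in CRY1 than in CRY2 (-1.27, 0.042). Its call in CRY1 against CPN-/- was lost with either CRY1 library left out (edgeR adjusted p = 0.073 and 0.093). H2-M5 was the 1 that rose in CRY1 (1.99, edgeR adjusted p = 0.011), from 0.189 and 0.307 CPM to 0.83 and 1.13 CPM, a call lost without CRY1 replicate 2 (1.76, edgeR adjusted p = 0.088). H2-T10 fell in CRY1 (-2.94, edgeR adjusted p = 0.034) at levels of 0.614 CPM or less, a call lost with any CRY library left out, and its value ran from -6.81 without CRY1 replicate 1 to -2.09 without CRY1 replicate 2. H2-T10 passed the filter on low counts only through its CPN-/- libraries. H2-T22, a class I-like gene, was at 81.3 and 98.4 CPM in CPN-/-, 84.5 and 76.6 CPM in CRY1 and 66.6 and 75.1 CPM in CRY2. H2-T22 passed in neither (-0.16 and -0.34, edgeR adjusted p = 0.39 and 0.17).

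Genes of the pathway that also serve other proteins were listed apart. Of 7 peptide loading and trimming partners (Calr, Canx, Pdia3, Tapbpl, Erap1, Uggt1 and Bcap31), edgeR called 0 in each comparison with all 6 libraries, with medians of -0.03 in CRY1 and -0.18 in CRY2. Without CPN-/- replicate 1 these medians were 0.03 and -0.14, and without CPN-/- replicate 2 they were -0.10 and -0.21. Some partners were called with 1 CPN-/- library left, where more of all genes were called too. At an unadjusted p under 0.05 edgeR would have called 2 in CRY1, 1 in CRY2 and 1 between the CRY lines. DESeq2 called 0, 1 and 1. Calr, the chaperone calreticulin, was at 1323 and 1260 CPM in CPN-/-, 1271 and 1310 CPM in CRY1 and 1192 and 1087 CPM in CRY2. Of the 14 constitutive proteasome core subunits 3 fell in CRY1, namely Psmb4 (-0.96, edgeR adjusted p = 0.021), Psma5 (-0.89, 0.015) and Psmb2 (-0.53, 0.037), and each of the 3 calls was lost with either CRY1 library left out. The share of all tested genes that fell was 13.1% in CRY1 and 4.08% in CRY2. In CRY2 edgeR and DESeq2 each called 0 of 14 core subunits, against 3 at an unadjusted p under 0.05. All 14 values were below 0 in each comparison with CPN-/- (medians -0.44 and -0.35), and the CPN-/- libraries differed widely for such short transcripts, as in Psmb4 at 256 and 416 CPM. Without CPN-/- replicate 1 the medians of the 14 core subunits were -0.70 in CRY1 and -0.61 in CRY2. Without CPN-/- replicate 2 these medians were -0.12 and -0.06. Of 5 activator and assembly genes only Psme3, a nuclear proteasome activator, fell in CRY1 (-0.52, edgeR adjusted p = 0.0091), and in CRY2 edgeR and DESeq2 called 0, against 1 at an unadjusted p under 0.05. The Psme3 call was lost when either CRY1 library was left out (edgeR adjusted p = 0.11 and 0.12).

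**Figure D5:**
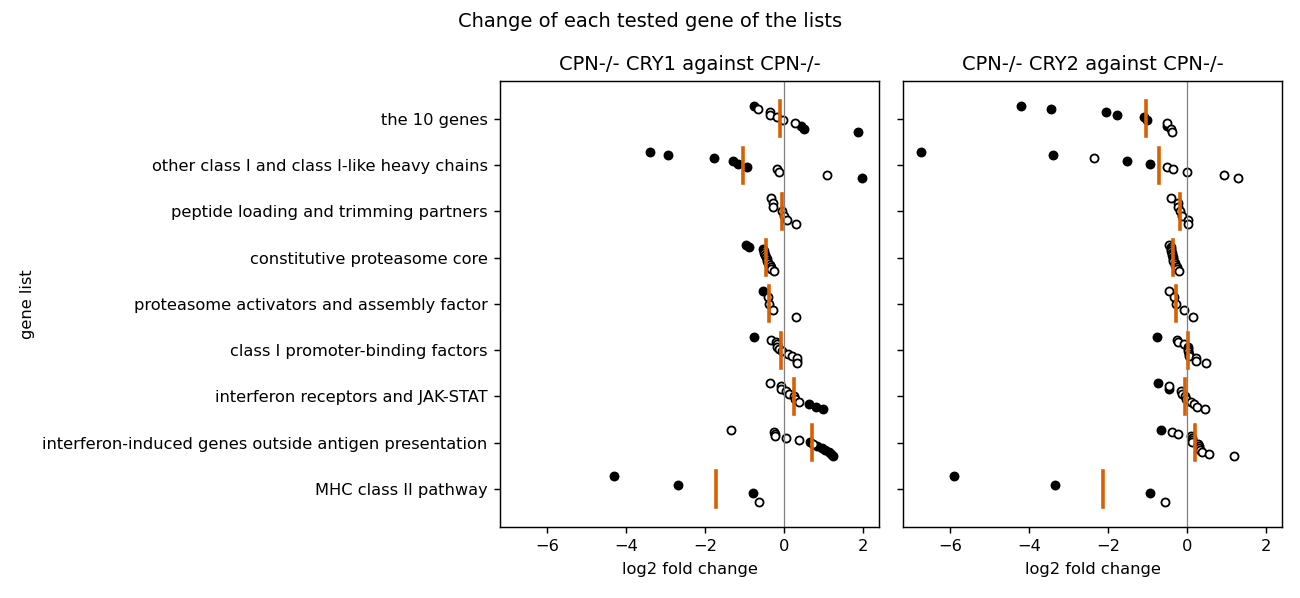
Log2 fold change of each tested gene of the lists in CRY1 (left) and in CRY2 (right) against CPN-/-, with 1 point per gene, filled where adjusted p was under 0.05 (edgeR quasi-likelihood test), and a bar at the median of the list. The median of the 10 class I genes is -1.04 for CRY2 against CPN-/-, while loading partners (-0.18) and core proteasome subunits (-0.35) lie nearer 0.

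Of 12 factors that bind class I promoters, Irf1 was the 1 called in both CRY lines. Irf1, an interferon regulatory factor, was at 58.3 and 61.7 CPM in CPN-/-, 40.1 and 31.1 CPM in CRY1 and 35.3 and 35.4 CPM in CRY2. It fell alike in size (-0.75 and -0.76, edgeR adjusted p = 0.01 and 0.022), with a difference of 0.01 between the CRY lines (0.97). The CRY1 call was lost without CRY1 replicate 2 (-0.58, edgeR adjusted p = 0.092), and the CRY2 call with either CRY2 library left out (-0.76, 0.19). Rela, the p65 subunit of NF-kappaB, was at 77.9 and 81.8 CPM in CPN-/-, 101 and 99.5 CPM in CRY1 and 67 and 66.9 CPM in CRY2. It rose in CRY1 (0.33, edgeR adjusted p = 0.038), was -0.25 in CRY2 (0.15), and was higher in CRY1 than in CRY2 (0.58, 0.0071). The CRY1 call of Rela was lost with any CRY library left out and under 2 other alternatives (edgeR adjusted p up to 0.23).

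Some interferon signalling genes were higher in the CRY1 line. Of 11 receptor and JAK-STAT genes 3 rose in CRY1 (median 0.25), 2 fell in CRY2 (median -0.05), and 5 were higher in CRY1 than in CRY2. The shares of all tested genes called in these directions were 11.2%, 4.08% and 7.72%. Stat2, a transducer of type I interferon signals, was at 77.5 and 60.6 CPM in CPN-/-, 153 and 124 CPM in CRY1 and 98.7 and 93.3 CPM in CRY2. It rose in CRY1 (1.00, edgeR adjusted p = 0.0063) and was 0.47 in CRY2 (0.13). Irf9, which binds DNA in the same complex, and the kinase Jak2 rose in CRY1 as well (0.82 and 0.65, edgeR adjusted p = 0.0038 and 0.01). Without CRY1 replicate 1 all 3 calls were lost (0.84, 0.71 and 0.69, edgeR adjusted p = 0.066, 0.054 and 0.081), and without CRY1 replicate 2 that of Jak2 was lost (0.61, 0.11). The genes that fell in CRY2 were receptor chains. Ifngr2, a chain of the interferon gamma receptor, was at 71 and 80.1 CPM in CPN-/-, 83.2 and 81.7 CPM in CRY1 and 46.3 and 45.1 CPM in CRY2 (-0.72, edgeR adjusted p = 0.0081), and Ifnar2, a chain of the interferon alpha and beta receptor, fell by 0.45 on the log2 scale (0.04). Both receptor calls were lost with either CRY2 library left out (edgeR adjusted p of 0.12 to 0.35), and that of Ifnar2 also with the 4 libraries of the comparison alone (0.15). Transcripts of the 4 interferon and TNF ligands listed were all but missing, with Ifnb1 and Ifng at 0 counts in every library and Tnf and Lta at no more than 1. Other interferon genes were not examined.

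Of 15 interferon-induced genes outside antigen presentation, 14 were tested. In CRY1 7 rose (median 0.71), and in CRY2 the 1 call was a fall, of Gbp2 (median 0.21). For comparison, 11.2% of all tested genes rose in CRY1 and 4.08% fell in CRY2. Without CRY1 replicate 1, only 2 rose in CRY1 (median 0.49), and the fall of Gbp2 was lost with any CRY library left out. Those that rose included Usp18 (1.26, edgeR adjusted p = 0.0067), Mx2 (1.19, 0.0068), Irf7 (1.15, 0.0049), Oas1a (1.06, 0.0077), Ifit2 (0.98, 0.0046) and Ifih1 (0.84, 0.0044). The calls of Mx2, Oas1a and Ifih1 were lost without CRY1 replicate 1 (edgeR adjusted p = 0.056, 0.078 and 0.062), that of Ifit2 with either CRY1 library left out (0.051 and 0.053), and that of Usp18 with either CPN-/- library left out (0.078 and 0.053). Irf7, an interferon regulatory factor, was at 16.7 and 18.3 CPM in CPN-/-, 44.6 and 33 CPM in CRY1 and 17.9 and 20.6 CPM in CRY2. Isg15, by contrast, was at 20.3 and 31.4 CPM in CPN-/-, 25 and 18.4 CPM in CRY1 and 28.7 and 35.8 CPM in CRY2, and passed in no comparison. Mx1, named after its values were seen, was lower in CRY1 than in CRY2 (-2.54, edgeR adjusted p = 0.0093). Gbp2, a guanylate-binding protein named likewise, was at 16.4 and 18.7 CPM in CPN-/- and 11.8 and 10.7 CPM in CRY2 (-0.64, edgeR adjusted p = 0.045). In CRY2 this list ran from -0.64 to 1.20, with 0 called higher and 1 lower, and its relation to the class I values was not tested.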

How the data were processed

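Poly(A) RNA of 3 mouse embryonic fibroblast lines, 2 libraries each, was sequenced in pairs of reads from a strand-specific kit. The submitters' processing notes name STAR, featureCounts and mm10, and what the authors deposited were unnormalized read counts of 27179 genes. Annotation, strand setting and the handling of reads with several positions are not given in the sources used here. Groups were taken from the labels. The 10 genes and all gene lists were chosen with earlier results of these data known, and 1 gene of a list is not reported here.

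Here, counts were fitted with edgeR 4.0.16 in R 4.3.3 (TMM factors, filterByExpr with a minimum count of 10 and a total of 15, robust quasi-likelihood F test, two-sided). The model held cell line as its only term on all 6 libraries, so the lines shared an estimate of the spread, and p-values were adjusted by Benjamini-Hochberg over the 14069 genes tested and called under 0.05. From each list, at most 6 called genes with the largest log2 fold change were named, plus the constitutive counterparts of the immunoproteasome subunits, and further names are marked or complete a count. Of the tested genes, 726 had no symbol. FPKM was computed from these counts and the longest coding GENCODE M21 transcript of each gene, which also gave exon overlaps. Symbols, coordinates and promoter windows came from RefSeq (GRCm38.p6), and near-identical transcripts (at least 95% over 150 bases) were searched with BLAST+ 2.17.0. H2-K1 and H2-D1 were matched by present symbol only. Motifs were read on both strands, and the shorter interferon factor motif was chosen after the sequences were seen. Scripts were tested on simulated data. Alternatives were DESeq2 1.42.0, other scalings and filters, a replicate term, fewer libraries and removal of the trend with transcript length (known for 88.7% of tested genes). Intervals on ratios of counts cover counting error only.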

Additional observations from a re-analysis of the deposited data

Results flagged for a closer look

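A direct test between the CRY lines (edgeR quasi-likelihood, log2 fold change of CRY1 against CRY2, adjusted p under 0.05) called 9 of the 10 class I genes. Of all tested genes it called 16.3% (8.58% lower and 7.72% higher). CRY1 was the higher line in each of the 9: Psmb8 by 4.03, Nlrc5 by 3.65, H2-K1 by 2.66, Psmb9 by 1.42, H2-D1 by 1.28, Tap1 by 0.93, B2m by 0.82, Tap2 by 0.74 and Tapbp by 0.47. The calls of B2m, Tap1, Tap2, Tapbp and Psmb9 were lost in some refits with a CRY library left out. Against CPN-/-, Nlrc5 was the 1 gene that was called in opposite directions in the CRY lines.

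The same test picked out other heavy chains, with H2-Q7 at 3.36 and H2-Q4 at 2.23 higher in CRY1 and Cd1d1 lower at -1.27. Among interferon signalling and induced genes it picked out Usp18 (1.13), Irf7 (1.02), Oasl2 (0.98), Ifngr2 (0.85), Jak2 (0.79), Oas1a (0.72), Ifih1 (0.71), Ifit2 (0.59), Irf9 (0.54), Ifnar1 (0.44) and Ifnar2 (0.39), all higher in CRY1, and Mx1 (-2.54), lower in CRY1. Among promoter-binding factors Rela differed by 0.58, Irf2 by 0.42 and Rfx5 by -0.65, and among proteasome activators Psme3 by -0.45. Of 8 fibroblast markers tested, Pdgfra (-1.42), Dcn (-4.36, at 2.24 CPM or below) and Col1a2 (-0.65) were lower in CRY1 than in CRY2. Fbn1 (0.71) and Pdgfrb (0.46) were above 0 but not called, and Vim was at -0.00. Col1a1 (-0.60) and Col3a1 (-0.39) were below 0 but not called. Over the list 6 of 8 values, Vim among them, were below 0 (median -0.50). Of the 8, 3 were called lower and 0 higher (8.58% and 7.72% of all tested genes). The lines thus also differed in some markers of the cell type. The part of that difference in the class I values was not tested. Pecam1, an endothelial marker at 0.667 CPM or less in every library, was also lower in CRY1 (-1.42). Oasl2, Ifnar1, Rfx5, Irf2, Col1a2, Pecam1 and Mx1 were named after their values were seen.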

How the results depend on the processing

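All 10 class I genes were below CPN-/- in CRY2, and above CRY2 in CRY1, under each alternative that tested them; Psmb8 dropped out where at least 10 counts were required in every library. For CRY1 against CPN-/- the count called was 4, and it was 2 with the 4 libraries of the comparison alone and 1 to 7 with a library left out. For CRY2 against CPN-/- it was 7, and 4 to 10 with a library left out. For CRY1 against CRY2 it was 9, and 4 to 9 with a library left out. A line left with 1 library is assumed to vary like the others. The CPN-/- libraries differed most from each other, so a refit with 1 of them left takes too small a spread for that line. The fit with a replicate block called 4, 7 and 9. Deviations of same-numbered libraries correlated weakly over genes (r of -0.079, 0.14 and -0.03). With 2 libraries per line this does not settle whether the numbers pair the samples. Values against CPN-/- that changed sign, all in CRY1 and none called after the change, were Tapbp (0.05 with the length trend removed, 0.04 without CPN-/- replicate 1, 0.05 without CRY1 replicate 2), Psmb8 (0.08 with the length trend removed, 0.11 without CPN-/- replicate 2) and Psmb10 (0.02 without CPN-/- replicate 2). With a library left out they ran from -0.08 to 0.05 for Tapbp, -0.39 to 0.11 for Psmb8 and -0.64 to 0.02 for Psmb10. The cause was not tested. Over the 3 comparisons in turn, single class I values kept direction and call in 113, 124 and 122 refits and lost the call in 11, 9 and 17.

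Over all genes, 1845 were lower and 1578 higher in CRY1 and 574 and 362 in CRY2. With the length trend removed these were 2320 and 3208, and 990 and 1655, so the split of directions depends on that trend. With the 4 libraries of the comparison alone they were 1020 and 778, and 326 and 147, and between the CRY lines 3365 and 3480 in place of 1207 and 1086. DESeq2 called 693 lower and 632 higher in CRY2, and with 10 counts required in every library 329 were lower. With a library left out, the count lower ran from 375 to 4469 in CRY1, from 143 to 3994 in CRY2 and from 222 to 3436 between the CRY lines, and the count higher from 268 to 4512, from 54 to 4052 and from 223 to 3472. Psmb8 and Psmb9 had 4 to 18 counts per CRY2 library, which limits the precision of their folds.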

Other observations

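MHC class II genes were low, 4 of the 8 listed passed the filter, and 3 of those 4 fell in both CRY lines. By comparison, 13.1% of all tested genes fell in CRY1 and 4.08% in CRY2. Cd74, the invariant chain that guides class II molecules, was at 3.17 and 5.18 CPM in CPN-/-, at 0.304 and 0.0973 CPM in CRY1 and at 0.441 and 0.37 CPM in CRY2 (log2 fold change -4.29 and -3.34, edgeR adjusted p = 0.0014 and 0.0053). H2-DMb1, part of the class II peptide editor, was at 19.5 and 23.5 CPM in CPN-/-, 13.1 and 12.1 CPM in CRY1 and 11.1 and 11.4 CPM in CRY2 (-0.77 and -0.93, edgeR adjusted p = 0.0079 and 0.0088). H2-Ab1, a class II beta chain, fell in CRY1 (-2.67, edgeR adjusted p = 0.0041) and had 1 count over both CRY2 libraries against 78 in CPN-/-, a ratio of 73.1 (95% counting interval 12.7 to 2922). H2-Ab1 passed the filter only through its CPN-/- libraries, so its fall is given as a description. Ciita, the transactivator related to Nlrc5 that drives class II genes, was at 0.324 CPM or less in every library. Ciita was not tested, and its counts went the other way: 1 and 0 in CPN-/-, 7 and 10 in CRY1, 3 and 8 in CRY2. The Cd74 value in CRY1 was -5.35 without CRY1 replicate 1. Without CRY1 replicate 2 the MHC class II pathway list had 1 gene called in CRY1, and with either CRY2 library left out it had 1 called in CRY2.

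Fibroblast markers did not move together in CRY1, where 2 of 8 fell and 2 rose (13.1% and 11.2% of all tested genes). In CRY2 the 8 values ran from 0.10 to 1.44 (median 0.43), with 1 called higher (2.57% of all tested genes). Pdgfra fell and Pdgfrb and Fbn1 rose in CRY1 (-1.31, 0.88 and 1.14, edgeR adjusted p = 0.0015, 0.01 and 0.021). Dcn, which encodes the matrix protein decorin, fell in CRY1 from 0.723 and 0.921 CPM to 0.166 and 0.0324 CPM (-2.92, edgeR adjusted p = 0.009) and rose in CRY2 to 2.24 and 2.19 CPM (1.44, 0.039). The Dcn call in CRY1 was lost without CRY1 replicate 2 (-2.27, edgeR adjusted p = 0.055), and its value was -4.48 without CRY1 replicate 1. The Dcn call in CRY2 was lost with either CRY2 library left out (edgeR adjusted p = 0.25 and 0.23), and those of Pdgfrb and Fbn1 with either CRY1 library left out (0.085 and 0.082, and 0.11 and 0.13).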
